A study of Mus musculus with 8 samples.

Results

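Integrins, selectins and their counter-receptors were described in Ebf1-deficient pro-B cell lines of the mouse with and without the capacity to form T cells. The set held 33 gene symbols, and 31 of them had a probe on the array, out of 20125 symbols with a probe in all. Each gene was read from 1 probe, the brightest of those its transcript accession mapped to, and Itga10 and Itgae had no probe by that rule. The 8 arrays formed 4 groups of 2. All groups were cell lines raised from fetal liver progenitors that lack Ebf1, a transcription factor needed for B-cell commitment. The pro-B(+) line had been established and maintained on the stromal line OP9 and kept its T-lineage potential. The pro-B(-) line had been established and maintained on the thymic stromal line TD7 and had none. T-lineage potential and stroma therefore cannot be told apart between these lines. The sources used here do not say on which stroma the transduced cells were grown when harvested. The pro-B(-)/Mock cells were pro-B(-) cells that carried an empty lentiviral vector, and the pro-B(-)/LMO2 cells carried the same kind of vector with Lmo2, which encodes a LIM-domain adaptor of haematopoietic transcription complexes. Each type of cell is 1 line. The study describes the pro-B(+) and pro-B(-) array data as coming from independent biological replicates. The sources used here do not say this of the transduced cells, whose spread between arrays may be technical. All p-values rest on 1 estimate of the spread between the arrays of a group, shared by the 4 groups. They do not measure the spread between lines with or without T-lineage potential.

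Integrins are pairs of an alpha and a beta subunit that reach the cell surface as heterodimers, so the transcript of a subunit is only part of a receptor. The beta1 integrins mostly bind matrix proteins, the beta2 integrins are carried by leukocytes and bind ICAM proteins on other cells, and alpha4 pairs with beta1 or beta7 to bind VCAM-1, fibronectin or MAdCAM-1. Selectins start rolling on vessel walls by binding sugar-decorated ligands such as PSGL-1, the product of Selplg, and CD44 binds hyaluronan. In lymphoid progenitors such receptors hold the cells to marrow stroma and guide their entry into the thymus.

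Levels are the log2 of the deposited spot intensity minus the log2 of the 75th percentile of that array, so a level of 0 equals that percentile, and levels of different probes cannot be compared. Between 56.5% and 61.2% of all probes on an array were well above background by the scanner's own flag, and replicate arrays differed by an SD of 0.13 to 0.15 log2 units. The pro-B(+) and pro-B(-) arrays lay on 1 slide and both transduced groups on another, so a difference between pro-B(-)/Mock and pro-B(-) cannot be told apart from the slide. Of the 12 pro-B marker genes, 10 or 11 were well above background on both arrays in every group. Of 8 endothelial markers, Kdr and Plvap were well above background on both arrays in every group, Flt1 on single arrays, and the defining Cdh5, Tek, Tie1 and Esam on none. The Lmo2 probe read 2.10 ± 0.01 (SD, n = 2) in pro-B(+), 0.63 ± 0.0019 in pro-B(-), 0.35 ± 0.0023 in pro-B(-)/Mock and 0.96 ± 0.04 in pro-B(-)/LMO2. Lmo2 therefore exceeded its pro-B(-) level 2.76-fold in pro-B(+) cells (limma adjusted p = 1.99e-06) and its vector-control level 1.53-fold in pro-B(-)/LMO2 cells (limma adjusted p = 3.82e-05). Whether that probe reads the vector's transcript was not tested.

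Of the 31 members, 19 were well above background on both arrays in all 4 groups, and 25 in at least 1 group. A further 6 members were in no group above background on both arrays, namely Itga2, Itga9, Itgb6, Itgb8, Selp and Sele, the last pair being the platelet and endothelial selectins. The pro-B(-)/LMO2 group had 23 members above background and each other group had 21. The plot of levels by array shows all of them.

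**Figure D1:**
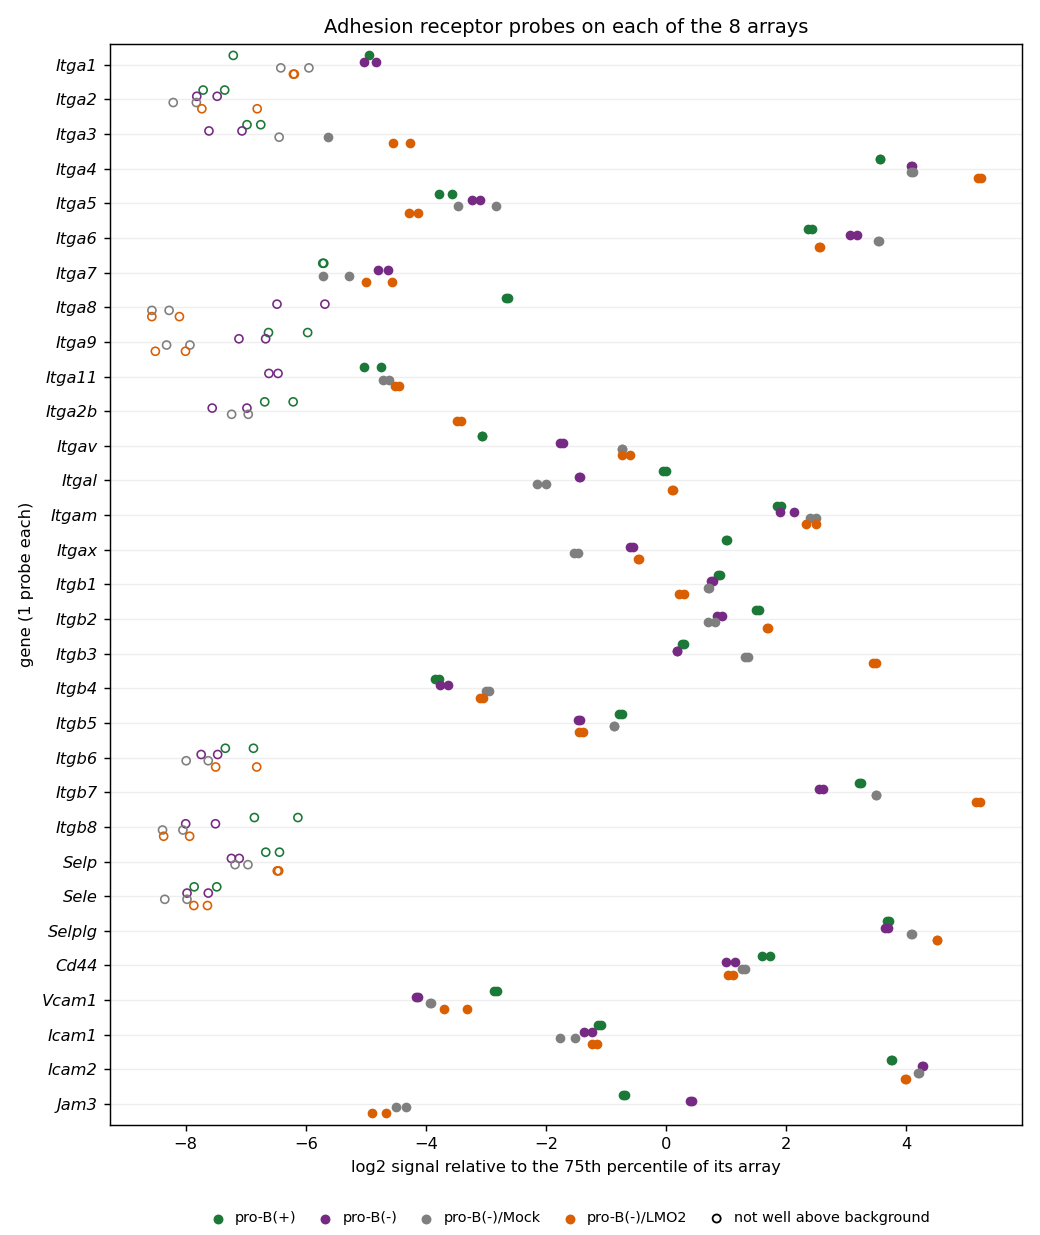
Level of each of the 31 adhesion receptor probes on each of the 8 arrays (log2 signal relative to the 75th percentile of the array, x axis; 1 row per gene). Each point is 1 array, coloured by group, and open points were not well above background; Itga2b is filled only in pro-B(-)/LMO2 and Itga8 only in pro-B(+).

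Between the parental lines, pro-B(+) set against pro-B(-), the beta2-integrin subunits Itgal and Itgax rose 2.66-fold and 2.99-fold, the counter-receptor Vcam1 rose 2.48-fold, and Itga8 was at least 8.87-fold higher. The vitronectin-receptor subunit Itgav fell 2.51-fold and the junctional adhesion molecule Jam3 fell 2.17-fold. Of the members, 23 were tested and 15 passed an adjusted p of 0.05 (limma, Benjamini-Hochberg over all probes tested), of which 9 were higher and 6 lower. The share called was 65.2% of the members, against 49.2% of all 23468 probes tested, of which 20.8% were called higher and 28.4% lower. In all, 7 members were called with at least a 2-fold change, against 11.1% of all probes. The median log2 change of the members tested was 0.09, against -0.04 over all probes. When arrays were scaled to their median instead of their 75th percentile, the median of all probes was -0.33 and 9 members were called higher and 12 lower, with 15.9% rather than 42.3% of all called probes being higher.

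In pro-B(-)/LMO2 against pro-B(-)/Mock cells, transcripts for both subunits of alphaLbeta2, alpha4beta7 and alphaIIbbeta3 rose together. Itgal rose 4.55-fold, Itgb3 4.37-fold, Itgb7 3.23-fold and Itga4 2.19-fold, and Itga2b, the platelet alphaIIb subunit, was at least 6.24-fold higher. The fibronectin-receptor subunit Itga5 and the laminin-receptor subunit Itga6 fell 2.07-fold and 1.97-fold. Here 23 members were tested and 19 were called by limma, 12 higher and 7 lower. That was 82.6% of the members, against 64.8% of all 22998 probes tested, with 28.4% of probes called higher and 36.4% lower. In all, 8 members were called with at least a 2-fold change, against 10.4% of all probes. The members' median log2 change was 0.42 and that of all probes -0.04. With scaling to the array median, 10 members were called higher and 8 lower, the members' median was 0.21, the median of all probes was -0.25, and 24.6% rather than 43.8% of all called probes were higher.

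**Figure D2:**
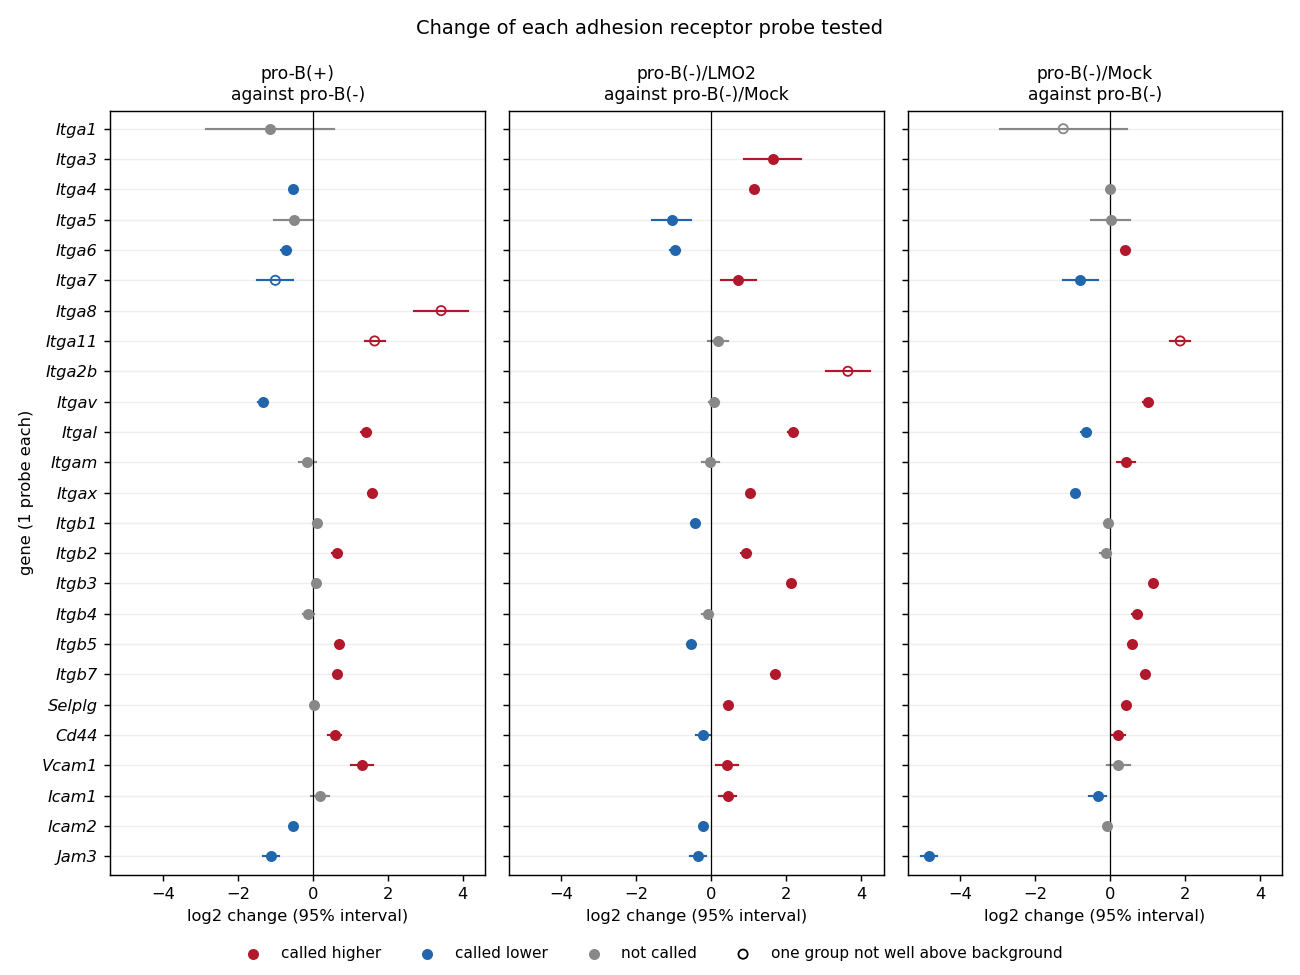
Log2 change of each member tested in 3 comparisons (x axis, point, with its 95% interval; 1 row per gene). Red points were called higher, blue lower and grey not called at an adjusted p of 0.05, and open points have a group with no array well above background; Itga4 is lower in the left panel and higher in the middle one, and Jam3 lies at -4.83 in the right one.

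Both comparisons used separate arrays, each within 1 slide. Of the members, 21 were tested in both, and 12 were called in both, against 36.9% of the 21882 probes tested in both. Of the 12, 5 were higher in both (Itgal, Itgax, Itgb2, Itgb7 and Vcam1), 3 were lower in both (Itga6, Icam2 and Jam3) and 4 moved in opposite directions (Itga4, Itga7, Itgb5 and Cd44). Over all probes tested in both, 10.7% were called higher in both, 13.7% lower in both and 12.5% in opposite directions. With Lmo2 the calls of Itga7, Cd44, Vcam1, Icam2 and Jam3 were each lost under at least 1 alternative setting. The difference between the effects was tested in the same limma fit, where 19 of 25 members were called, 8 with a more positive change in pro-B(+) and 11 with a more positive change in pro-B(-)/LMO2. This was 76% of the members, against 54.1% of all 24584 probes, with 29% higher and 25.1% lower.

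Of the beta2-integrin subunits, Itgal, Itgb2 and Itgax rose in both comparisons, while the values of Itgam depended on the probe. Itgal encodes the alphaL subunit of LFA-1, which binds ICAM-1 and ICAM-2. Its levels were -0.05 and -0.0023 in pro-B(+), -1.45 and -1.43 in pro-B(-), -2.15 and -2.01 in pro-B(-)/Mock and 0.10 and 0.12 in pro-B(-)/LMO2. No groups overlapped, and pro-B(-)/LMO2 stood highest. The log2 change was 1.41 ± 0.05 (SE, n = 2 a group, limma adjusted p = 1.13e-05) in pro-B(+) and 2.19 ± 0.05 (limma adjusted p = 2.09e-06) with Lmo2. The effect with Lmo2 was the larger by 0.78 ± 0.08 (difference -0.78, limma adjusted p = 0.000641). A second Itgal probe gave changes of 1.28 and 2.19.

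Itgb2 encodes beta2, the partner of alphaL, alphaM and alphaX. It read 1.49 and 1.55 in pro-B(+), 0.92 and 0.84 in pro-B(-), 0.82 and 0.70 in pro-B(-)/Mock and 1.67 and 1.69 in pro-B(-)/LMO2. The arrays of both high groups lay above all arrays of the other groups. The changes were 0.64 ± 0.05 (SE, limma adjusted p = 0.000296) and 0.92 ± 0.05 (limma adjusted p = 4.47e-05). Their difference of -0.28 passed the threshold (limma adjusted p = 0.0269) but not when any 1 of 6 arrays was left out, with values from -0.22 to -0.31 and adjusted p from 0.0522 to 0.0814.

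Itgax, the alphaX subunit carried by dendritic and myeloid cells, read 0.99 and 1.02 in pro-B(+), -0.55 and -0.60 in pro-B(-), -1.47 and -1.53 in pro-B(-)/Mock and -0.47 and -0.45 in pro-B(-)/LMO2. The pro-B(+) arrays were the highest, and the other groups did not overlap. Itgax rose by 1.58 ± 0.04 (SE, limma adjusted p = 2.29e-06) in pro-B(+) and by 1.04 ± 0.04 (limma adjusted p = 9.25e-06) with Lmo2. Itgam, the alphaM subunit, ranged from 1.84 to 2.49 over the 8 arrays and was not called in either comparison (-0.14 and -0.03), whereas a dimmer Itgam probe of the same transcript gave 1.37 (limma adjusted p = 4.66e-06) and 0.83 (limma adjusted p = 2.52e-05). The mean over the 3 Itgam probes gave 0.45 (limma adjusted p = 0.00148) and 0.28 (limma adjusted p = 0.0067), so the direction of Itgam depended on the probe.

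Myeloid marker genes moved with the same groups. All 14 measured myeloid markers were well above background on both pro-B(+) arrays, against 8 of 14 in pro-B(-), 9 in pro-B(-)/Mock and 10 in pro-B(-)/LMO2. The summed linear level of the list, in multiples of the 75th percentile, was 125.7 to 127.3 in pro-B(+), 76.9 to 85.2 in pro-B(-), 71.8 to 73.5 in pro-B(-)/Mock and 75.1 to 79.9 in pro-B(-)/LMO2. Of the 14, 12 were called higher and Fcgr3 lower in pro-B(+), with a median log2 change of 4.41 over the list. With Lmo2, 6 of the 10 tested rose and those that fell were Adgre1 (-1.21, limma adjusted p = 1.74e-05) and Csf3r (-0.27, limma adjusted p = 0.0141). The shares of all probes called were 20.8% higher and 28.4% lower in pro-B(+), and 28.4% higher and 36.4% lower with Lmo2. Csf3r alone made up 51.5% to 53% of the sum in pro-B(+) and 70.7% to 92.1% in the other groups, and the other 13 markers summed to 59.8 to 60.9, 6.54 to 6.73, 6.24 to 6.31 and 22.0 to 22.7 in the same order of groups. The granulocyte markers S100a8 and S100a9 were above background in pro-B(+) only, while Mpo was 3.97 ± 0.05 in pro-B(-)/LMO2 against -0.41 ± 0.02 in pro-B(-)/Mock. Their part in the changes of Itgal, Itgb2 and Itgax was not tested, and in whole lines more cells of a type and more RNA per cell cannot be told apart.

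The alpha4 and beta7 subunits parted between the comparisons. Itga4 encodes alpha4, which pairs with beta1 and beta7 and binds VCAM-1 on stroma. It read 3.55 and 3.56 in pro-B(+), 4.07 and 4.10 in pro-B(-), 4.07 and 4.10 in pro-B(-)/Mock and 5.24 and 5.19 in pro-B(-)/LMO2. The pro-B(-) and pro-B(-)/Mock arrays overlapped, the pro-B(+) arrays lay below them and the pro-B(-)/LMO2 arrays above. Itga4 fell by 0.53 ± 0.03 on the log2 scale (SE, limma adjusted p = 9.43e-05) in pro-B(+) and rose by 1.13 ± 0.03 (limma adjusted p = 4.19e-06) with Lmo2, a difference of -1.66 ± 0.05 (limma adjusted p = 1.26e-05). A second, dimmer Itga4 probe gave -0.70 and 1.40.

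Itgb7, whose product forms the gut-homing alpha4beta7, read 3.21 and 3.24 in pro-B(+), 2.61 and 2.54 in pro-B(-), 3.50 and 3.50 in pro-B(-)/Mock and 5.22 and 5.16 in pro-B(-)/LMO2. The 4 groups did not overlap. Itgb7 rose in both comparisons, by 0.65 ± 0.04 (SE, limma adjusted p = 0.000101) and 1.69 ± 0.04 (limma adjusted p = 2.34e-06). The difference was -1.04 ± 0.06 (limma adjusted p = 0.000106).

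Itga2b and Itgb3 encode alphaIIb and beta3, the fibrinogen receptor of platelets, and alphaIIb (CD41) also marks early blood progenitors. Itga2b was not well above background in 3 groups, where it read -6.68 and -6.21 in pro-B(+), -7.56 and -6.98 in pro-B(-) and -6.96 and -7.24 in pro-B(-)/Mock. In pro-B(-)/LMO2 it read -3.42 and -3.49. Both pro-B(-)/LMO2 arrays were thus the only ones with a measured level. Itga2b was at least 6.24-fold higher with Lmo2 (limma adjusted p = 6.46e-05), against the dimmest probe well above background on each pro-B(-)/Mock array. The fitted Itga2b change of 3.64 fell to 0.9979, below that bound, with normexp background correction, which adds an offset to dim spots.

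Itgb3 read 0.26 and 0.29 in pro-B(+), 0.18 and 0.19 in pro-B(-), 1.32 and 1.36 in pro-B(-)/Mock and 3.45 and 3.49 in pro-B(-)/LMO2. The parental groups lay within 0.12 of each other and pro-B(-)/LMO2 stood apart. The change with Lmo2 was 2.13 ± 0.04 (SE, limma adjusted p = 7.43e-07). In pro-B(+) it was 0.09 (95% interval 0.0048 to 0.18, limma adjusted p = 0.0769), and that value turned to -0.19 (limma adjusted p = 0.00518) with scaling to the array median. The difference between the effects was -2.03 ± 0.05 (limma adjusted p = 8.57e-06), and a second Itgb3 probe rose by 1.54 with Lmo2.

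Some megakaryocyte and platelet markers also rose with Lmo2. Of 11 such markers, 6 were above background on both arrays of pro-B(-)/LMO2, 5 in pro-B(-)/Mock and 4 in pro-B(-). In pro-B(+), where Itga2b was not well above background, 7 were. With Lmo2, 5 of 6 tested were called higher and Gp1bb lower (-0.77, limma adjusted p = 0.00276), against 28.4% of all probes higher and 36.4% lower. Pf4 and Vwf were instead highest in pro-B(+), at -4.54 ± 0.17 and -2.61 ± 0.05. The summed linear level of the 11 markers was 1.63 to 1.69 in pro-B(-)/LMO2, 0.65 to 0.656 in pro-B(-)/Mock, 0.57 to 0.59 in pro-B(-) and 0.75 to 0.77 in pro-B(+). Gp9 made up 62.4% to 63.8% of it in pro-B(-)/LMO2. The other 10 markers summed to 0.61 there and to 0.26 to 0.27 in pro-B(-)/Mock. Most of that rise was the matrix ligand Thbs1, at -1.25 ± 0.02 in pro-B(-)/LMO2 against -3.42 ± 0.02 in pro-B(-)/Mock. Gp9, a subunit of the platelet von Willebrand factor receptor, read 0.07 ± 0.06 in pro-B(-)/LMO2 against -1.37 ± 0.0063 in pro-B(-)/Mock, while the defining platelet genes Pf4, Ppbp, Gp1ba, Gp5 and Gp6 were above background on no array of either group. Their part in the rise of Itga2b and Itgb3 was not tested.

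**Figure D3:**
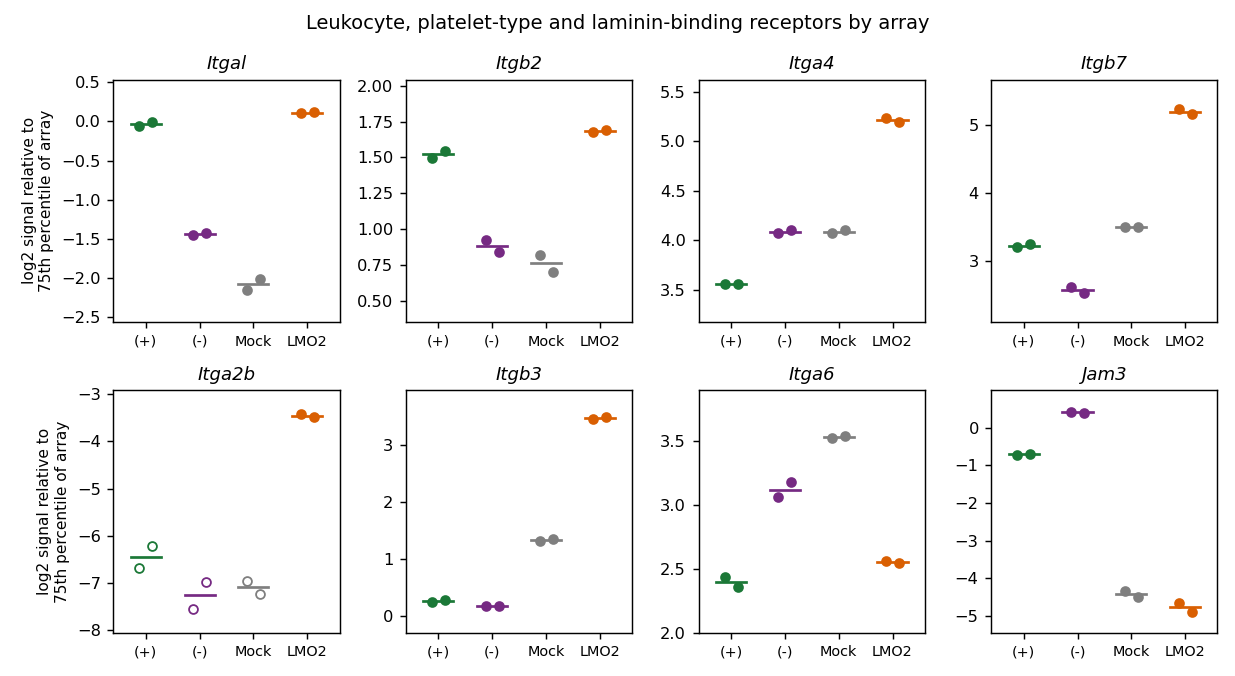
Levels of 8 adhesion receptor genes by array (y axis, log2 signal relative to the 75th percentile of the array; each panel has its own range). Points are arrays, lines are means of 2 arrays, and open points were not well above background; Itgal, Itgb2, Itga4, Itgb7, Itga2b and Itgb3 are highest in pro-B(-)/LMO2, whereas Jam3 is lowest there.

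With Lmo2, 7 members were called at least 2-fold higher, and 5 of them had a promoter in the RefSeq table used (build GRCm38.p6). The 250 bases before the start are shown for 3 that form alpha4beta7 and alphaIIbbeta3 with a partner in the set, because these subunits rose together. Itga4 lies at chr2:79255176-79255425 on the + strand, Itgb7 at chr15:102231936-102232185 on the - strand and Itga2b at chr11:102469884-102470133 on the - strand. Capitals mark matches, on either strand, to 4 motifs of factor families that LMO2 complexes are known to contain or neighbour. The E-box was searched as CANNTG. The letters for GATA factors were GATAA. An ETS core was taken to be GGAAG. The letters for RUNX factors were TGTGGT.
Itga4: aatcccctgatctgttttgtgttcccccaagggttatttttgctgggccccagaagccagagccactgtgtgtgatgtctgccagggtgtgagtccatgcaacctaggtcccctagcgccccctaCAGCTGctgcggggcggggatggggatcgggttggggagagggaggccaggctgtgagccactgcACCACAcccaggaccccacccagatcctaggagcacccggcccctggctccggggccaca
Itgb7: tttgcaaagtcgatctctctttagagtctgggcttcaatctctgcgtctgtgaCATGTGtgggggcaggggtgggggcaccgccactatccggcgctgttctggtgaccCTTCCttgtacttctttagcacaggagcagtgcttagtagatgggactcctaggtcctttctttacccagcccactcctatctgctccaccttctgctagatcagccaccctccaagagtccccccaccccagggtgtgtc
Itga2b: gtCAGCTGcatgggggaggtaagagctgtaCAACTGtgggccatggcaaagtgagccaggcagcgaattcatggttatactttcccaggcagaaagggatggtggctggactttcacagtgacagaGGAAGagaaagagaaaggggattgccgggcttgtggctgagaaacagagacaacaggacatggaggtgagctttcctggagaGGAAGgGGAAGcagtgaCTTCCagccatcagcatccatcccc
The Itga4 window held 1 E-box, from -125 to -120 counted from the start, and 1 RUNX match. The Itgb7 window held 1 E-box and 1 ETS match, and the Itga2b window held 2 E-boxes and 4 ETS matches. No matches overlapped in these windows. Of 32851 promoter windows of the same length, 66.2% held the E-box, 64.1% the ETS core, 22.6% the GATA motif and 14% the RUNX core, so a match of the first kinds was common. The matches are letters in a window and not sites of binding.

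The alphav and beta5 subunits moved in opposite directions in pro-B(+). Itgav encodes alphav, which binds vitronectin and osteopontin with beta1, beta3 or beta5. It read -3.07 and -3.06 in pro-B(+), -1.76 and -1.72 in pro-B(-), -0.73 and -0.73 in pro-B(-)/Mock and -0.73 and -0.60 in pro-B(-)/LMO2. The pro-B(+) arrays were the lowest and the transduced groups overlapped. Itgav fell by 1.33 ± 0.05 on the log2 scale (SE, limma adjusted p = 1.12e-05) in pro-B(+), and the change with Lmo2 was 0.07 (95% interval -0.06 to 0.19, limma adjusted p = 0.3), which turned to -0.14 with scaling to the array median. A second Itgav probe was called higher with Lmo2 (0.30, limma adjusted p = 0.0211), as was the mean over both probes (0.18, limma adjusted p = 0.0117). Itgb5, its beta5 partner, read -0.78 and -0.74 in pro-B(+), -1.47 and -1.43 in pro-B(-), -0.87 and -0.88 in pro-B(-)/Mock and -1.46 and -1.38 in pro-B(-)/LMO2. The pro-B(-) and pro-B(-)/LMO2 arrays overlapped as the low groups. Itgb5 rose by 0.69 ± 0.04 (limma adjusted p = 6.21e-05) in pro-B(+) and fell by 0.55 ± 0.04 (limma adjusted p = 0.000104) with Lmo2.

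Of the laminin receptors, Itga6 encodes alpha6, which pairs with beta1 or beta4. It read 2.43 and 2.36 in pro-B(+), 3.06 and 3.18 in pro-B(-), 3.52 and 3.54 in pro-B(-)/Mock and 2.56 and 2.54 in pro-B(-)/LMO2. Pro-B(+) and pro-B(-)/LMO2 were the low groups, and no groups overlapped. Itga6 fell by 0.72 ± 0.05 (SE, limma adjusted p = 0.000146) in pro-B(+) and by 0.98 ± 0.05 (limma adjusted p = 3.16e-05) with Lmo2. The difference of 0.25 passed the threshold (limma adjusted p = 0.0338) but not when any 1 of 6 arrays was left out, with values of 0.19 to 0.26. Itgb1, the shared beta1 subunit, read 0.86 and 0.90 in pro-B(+), 0.78 and 0.74 in pro-B(-), 0.71 and 0.69 in pro-B(-)/Mock and 0.22 and 0.29 in pro-B(-)/LMO2. The first 3 groups lay close together and pro-B(-)/LMO2 below them. Itgb1 fell by 0.45 ± 0.04 (limma adjusted p = 0.000233) with Lmo2, and in pro-B(+) the change was 0.12 (95% interval 0.02 to 0.22, limma adjusted p = 0.057), turning to -0.16 (limma adjusted p = 0.015) with scaling to the array median.

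Itga3, another laminin-receptor alpha subunit, read -6.98 and -6.75 in pro-B(+), -7.61 and -7.06 in pro-B(-), -5.63 and -6.44 in pro-B(-)/Mock and -4.27 and -4.54 in pro-B(-)/LMO2. Only the pro-B(-)/LMO2 arrays and 1 pro-B(-)/Mock array were well above background. The log2 change with Lmo2 was 1.64 ± 0.31 (SE, limma adjusted p = 0.00479), and 0.46 with normexp correction. Itga7 read -5.72 and -5.70 in pro-B(+), where it was not well above background, -4.79 and -4.63 in pro-B(-), -5.71 and -5.29 in pro-B(-)/Mock and -4.56 and -5.00 in pro-B(-)/LMO2. It was at least 1.90-fold lower in pro-B(+) (fitted log2 change -0.9983, limma adjusted p = 0.00791, and -0.33 with normexp correction) and rose by 0.72 ± 0.19 with Lmo2 (limma adjusted p = 0.0182). The latter call was lost without pro-B(-)/Mock replicate 1 (Itga7 0.51, limma adjusted p = 0.0831) and without pro-B(-)/LMO2 replicate 1 (0.50, limma adjusted p = 0.0839), and with quantile normalization (0.43, limma adjusted p = 0.0765) or the transduced arrays alone (adjusted p = 0.0593). Itgb4 lay between -3.85 and -2.95 and was not called in either comparison, with -0.12 and -0.10. It was called lower in both with scaling to the array median (Itgb4 -0.41, limma adjusted p = 0.000791, and -0.31, limma adjusted p = 0.00222) and with quantile normalization (-0.35, limma adjusted p = 0.00297, and -0.27, limma adjusted p = 0.00667).

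The other matrix receptors were Itga5, Itga8, Itga11 and Itga1. Itga5 encodes the alpha5 subunit of the fibronectin receptor and read -3.78 and -3.57 in pro-B(+), -3.23 and -3.10 in pro-B(-), -3.47 and -2.83 in pro-B(-)/Mock and -4.13 and -4.27 in pro-B(-)/LMO2. The pro-B(-)/LMO2 arrays were the lowest, and the pro-B(-)/Mock arrays lay on both sides of pro-B(-). Itga5 fell by 1.05 ± 0.21 (SE, limma adjusted p = 0.00598) with Lmo2, or -0.37 with normexp correction, and its value in pro-B(+) was -0.51 (95% interval -1.04 to 0.02, limma adjusted p = 0.0962). With scaling to the array median the latter was -0.80 (limma adjusted p = 0.0125).

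Itga8, whose product binds nephronectin with beta1, read -2.67 and -2.64 in pro-B(+) and was not well above background on the other 6 arrays, with -6.48 and -5.68 in pro-B(-), -8.56 and -8.28 in pro-B(-)/Mock and -8.10 and -8.56 in pro-B(-)/LMO2. Both pro-B(+) arrays stood apart, at least 8.87-fold above pro-B(-) (limma adjusted p = 0.000279). The fitted Itga8 change of 3.43 was 1.44 with normexp correction, which is less than that bound. Itga11, a collagen-binding alpha subunit of mesenchymal cells, read -5.03 and -4.74 in pro-B(+), -6.61 and -6.46 in pro-B(-), -4.71 and -4.62 in pro-B(-)/Mock and -4.52 and -4.45 in pro-B(-)/LMO2. Here pro-B(-) was the group not well above background, at least 1.89-fold below pro-B(+) (limma adjusted p = 9.47e-05). The fitted Itga11 change of 1.65 was 0.29 with normexp correction, again below the bound. With Lmo2 the Itga11 change was 0.18 (limma adjusted p = 0.187), turning to -0.03 with scaling to the array median and -0.04 with quantile normalization. Itga1, another collagen receptor subunit, was above background in both arrays of pro-B(-), in 1 of pro-B(+) and in none of the transduced groups. Its value in pro-B(+) was -1.15 (limma adjusted p = 0.219), which became -2.27 (limma adjusted p = 0.00176) without pro-B(+) replicate 1 and -0.02 without pro-B(+) replicate 2.

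Of the selectin and hyaluronan receptors, Selplg read 3.68 and 3.70 in pro-B(+), 3.69 and 3.64 in pro-B(-), 4.07 and 4.09 in pro-B(-)/Mock and 4.51 and 4.51 in pro-B(-)/LMO2. The parental groups overlapped. PSGL-1, its product, is used by progenitors that enter the thymus. Selplg rose by 0.43 ± 0.03 (SE, limma adjusted p = 0.000131) with Lmo2, and its value in pro-B(+) was 0.03 (95% interval -0.06 to 0.11, limma adjusted p = 0.554), turning to -0.26 (limma adjusted p = 0.00136) with scaling to the array median. Cd44 read 1.60 and 1.73 in pro-B(+), 0.9998 and 1.15 in pro-B(-), 1.27 and 1.31 in pro-B(-)/Mock and 1.03 and 1.1045 in pro-B(-)/LMO2. The pro-B(+) arrays were the highest. Cd44 rose by 0.59 ± 0.07 (limma adjusted p = 0.0013) in pro-B(+) and fell by 0.22 ± 0.07 (limma adjusted p = 0.0346) with Lmo2. The latter Cd44 call was lost when any 1 of the 4 transduced arrays was left out (values from -0.19 to -0.26, adjusted p from 0.0645 to 0.154) and under 3 other settings (-0.17 to -0.22, adjusted p from 0.052 to 0.208).

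Among the immunoglobulin-family counter-receptors, Vcam1 encodes the stromal ligand of alpha4 integrins. It read -2.81 and -2.87 in pro-B(+), -4.13 and -4.17 in pro-B(-), -3.94 and -3.91 in pro-B(-)/Mock and -3.70 and -3.31 in pro-B(-)/LMO2. No groups overlapped, and pro-B(+) was the highest. A second Vcam1 probe was well above background on no array (mean level -7.55). Vcam1 rose by 1.31 ± 0.12 (SE, limma adjusted p = 0.000412) in pro-B(+), or 0.53 with normexp correction, and by 0.42 ± 0.12 (limma adjusted p = 0.024) with Lmo2. The latter was lost without pro-B(-)/Mock replicate 1 (Vcam1 0.40, limma adjusted p = 0.0938) or replicate 2 (0.44, limma adjusted p = 0.0821), and was 0.23 without pro-B(-)/LMO2 replicate 2. It was also lost with scaling to the array median (Vcam1 0.21, limma adjusted p = 0.182), with quantile normalization (0.23, limma adjusted p = 0.157) and under 3 other settings (adjusted p from 0.0515 to 0.0741). Icam2, a ligand of LFA-1, fell by 0.52 ± 0.03 (limma adjusted p = 6.61e-05) and 0.21 ± 0.03 (limma adjusted p = 0.00156), and Icam1 rose by 0.44 ± 0.09 (limma adjusted p = 0.00691) with Lmo2 and was 0.19 in pro-B(+) (limma adjusted p = 0.133). With Lmo2, the Icam2 call was lost with quantile normalization (-0.037, limma adjusted p = 0.333) and the Icam1 call with scaling to the array median (0.23, limma adjusted p = 0.0635). The difference between the effects on Icam1 was -0.25 (limma adjusted p = 0.169), and -0.37 (limma adjusted p = 0.0333) without pro-B(-)/Mock replicate 1.

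Jam3 encodes JAM-C, a junctional protein that binds alphaMbeta2. It read -0.72 and -0.69 in pro-B(+), 0.43 and 0.40 in pro-B(-), -4.33 and -4.49 in pro-B(-)/Mock and -4.67 and -4.89 in pro-B(-)/LMO2. Both transduced groups stood far below both parental ones. Jam3 fell by 1.11 ± 0.09 (SE, limma adjusted p = 0.000207) in pro-B(+) and by 0.37 ± 0.09 (limma adjusted p = 0.0116) with Lmo2. The latter was -0.29 (limma adjusted p = 0.0616) without pro-B(-)/Mock replicate 1 and -0.09 (limma adjusted p = 0.166) with normexp correction.

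The vector control differed from its parent as well. In pro-B(-)/Mock against pro-B(-), Jam3 was 28.4-fold lower (log2 change -4.83 ± 0.09, SE, limma adjusted p = 2.35e-06, and -3.33 with normexp correction), Itgb3 rose 2.23-fold (limma adjusted p = 9.75e-06), Itgav rose 2.01-fold (limma adjusted p = 4.22e-05) and Itga11 was at least 2.20-fold higher (fitted log2 change 1.87, limma adjusted p = 6.54e-05, and 0.43 with normexp correction). Itgb7 rose by 0.93 ± 0.04 (limma adjusted p = 3.35e-05), whereas Itgax fell by 0.93 ± 0.04 (limma adjusted p = 2.46e-05) and Itgal by 0.64 ± 0.05 (limma adjusted p = 0.000287). Itga4 differed by 0.0023 (95% interval -0.08 to 0.09, limma adjusted p = 0.959). The second, dimmer Itga4 probe was called lower (-0.28, limma adjusted p = 0.00143), as was the mean over both probes (-0.14, limma adjusted p = 0.0125). Of 22 members tested, 15 were called, 10 higher and 5 lower, or 68.2% against 59.3% of all 23048 probes, of which 28.5% were higher and 30.8% lower. With at least a 2-fold change, 4 were called, against 9.34% of all probes. Vector and slide cannot be told apart in these values. Without pro-B(-)/Mock replicate 1 the calls were lost for Itga7 (-0.58, limma adjusted p = 0.0665), Itgam (0.38, limma adjusted p = 0.0585) and Cd44 (0.24, limma adjusted p = 0.102), and without pro-B(-)/Mock replicate 2 for Cd44 (0.19, limma adjusted p = 0.163) and Icam1 (-0.21, limma adjusted p = 0.0757). Without pro-B(-) replicate 1 they were lost for Cd44 (0.14, limma adjusted p = 0.179) and Icam1 (-0.27, limma adjusted p = 0.106), and without pro-B(-) replicate 2 for Itga7 (-0.71, limma adjusted p = 0.0796).

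Stromal marker genes moved in the parental comparison, with Lmo2 and between pro-B(-)/Mock and pro-B(-), where vector and slide cannot be told apart. Of the 16 or 17 tested, 14 were called higher in pro-B(+) (median log2 change 1.38), 8 with Lmo2 and 16 in pro-B(-)/Mock against pro-B(-), and 1, 4 and 0 were called lower. Of all probes, 20.8%, 28.4% and 28.5% were called higher and 28.4%, 36.4% and 30.8% lower. The summed linear level of the stromal markers was 42.6 to 43.1 in pro-B(+), 45.4 to 47.1 in pro-B(-), 65.9 to 66.3 in pro-B(-)/Mock and 50.1 to 51.5 in pro-B(-)/LMO2. Thy1 made up 39.3% to 74.6% of these sums, and the other 18 genes summed to 25.7 to 25.9, 11.98 to 12.3, 21.0 to 21.2 and 25.4 to 26.6 in the same order. Col1a1 read -0.73 ± 0.0012 in pro-B(+), -2.38 ± 0.06 in pro-B(-), -0.74 ± 0.0055 in pro-B(-)/Mock and -0.50 ± 0.03 in pro-B(-)/LMO2. Acta2 read 1.04 ± 0.01 in pro-B(-)/LMO2 against -0.50 ± 0.01 in pro-B(-)/Mock, and Thy1 4.63 ± 0.01 against 5.49 ± 0.0030. Of the 19 stromal markers, 16 were well above background on both arrays in each parental group and 17 in each transduced group. Dcn and Lum were above background on no array, and Postn only in the transduced groups. The part of stromal cells in the values of Itga8, Itga11, Itgav, Itgb5 and Vcam1 was not tested.

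Of 23 known alpha and beta pairings, 21 had a probe for both subunits. Both subunits were well above background on both arrays in 13 pairings in pro-B(+), pro-B(-) and pro-B(-)/Mock each and in 15 in pro-B(-)/LMO2, and 11 pairings met this in all 4 groups. The 11 included alpha4 with beta1 and with beta7, alpha6 with beta1 and with beta4, alphaL, alphaM and alphaX with beta2, and alphav with beta1, beta3 and beta5. Both subunits of alphaIIbbeta3 and of alpha3beta1 were above background only in pro-B(-)/LMO2, as the map of pairings shows. Those of alpha8beta1 met this only in pro-B(+) and those of alpha1beta1 only in pro-B(-). A transcript above background does not show that the heterodimer is on the surface.

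**Figure D4:**
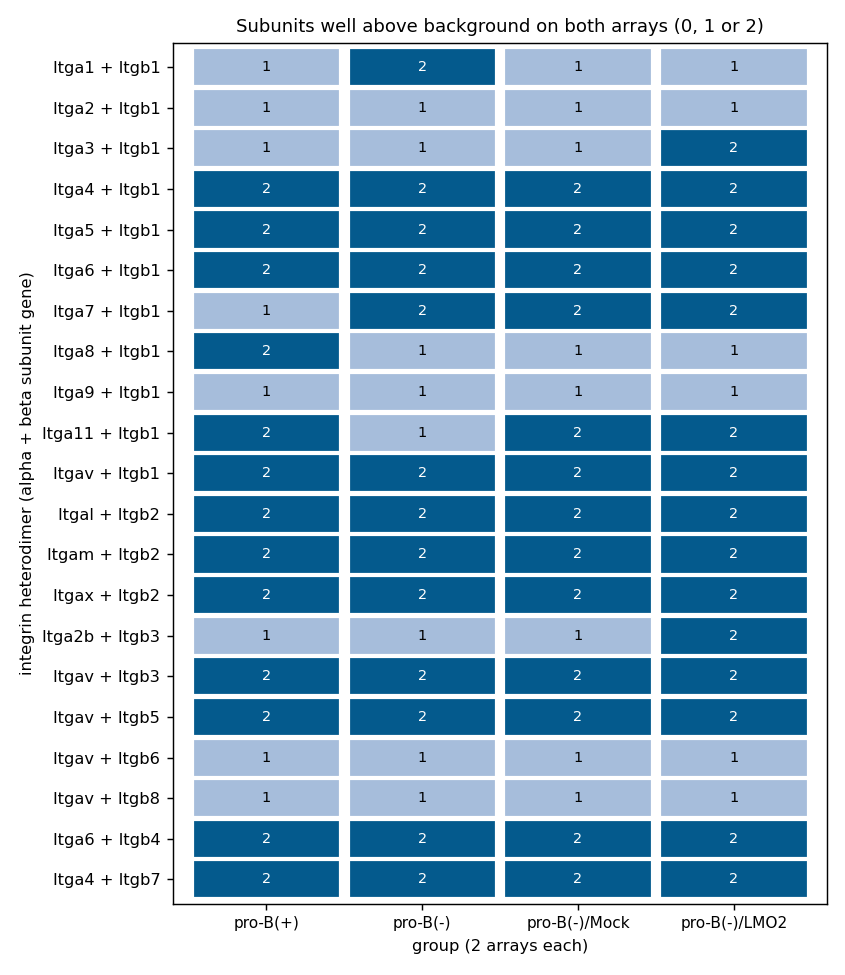
Number of subunits (0, 1 or 2, printed and shaded) well above background on both arrays of a group, for 21 integrin heterodimers (rows) in the 4 groups (columns). Itga2b with Itgb3 and Itga3 with Itgb1 reach 2 only in pro-B(-)/LMO2, Itga8 with Itgb1 only in pro-B(+) and Itga1 with Itgb1 only in pro-B(-).

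Other genes of the adhesion pathway were counted in the same fit, and their counts stand against 20.8% of all probes called higher and 28.4% lower in pro-B(+), and 28.4% higher and 36.4% lower with Lmo2. Of the integrin activators and adaptors, 12 of 29 tested were called higher and 7 lower in pro-B(+), and 15 of 30 higher and 4 lower with Lmo2, with medians of 0.02 and 0.22. Ptk2, the focal adhesion kinase, rose 10.2-fold in pro-B(+) (limma adjusted p = 8.92e-07), while Ptk2b, its relative Pyk2, rose 2.41-fold with Lmo2 (limma adjusted p = 3.44e-06). Zyx, a focal adhesion protein, rose 2.58-fold and 2.94-fold, Fermt2, which encodes the integrin activator kindlin-2, fell 2.82-fold in pro-B(+), and Parvb rose 2.31-fold with Lmo2.

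Of the matrix ligands, 10 of 12 tested were called higher and 0 lower in pro-B(+), with a median of 1.27, and 7 of 10 higher and 1 lower with Lmo2, with a median of 0.54. The laminin chain Lamb1 rose 2.53-fold and 4.78-fold and thrombospondin Thbs1 3.05-fold and 4.49-fold. Nid1, a basement membrane linker, rose 3.97-fold in pro-B(+), and the osteopontin gene Spp1 rose 2.02-fold with Lmo2. These ligands stand beside the stromal markers above.

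Of the genes for selectin ligand synthesis, 7 of 13 were called higher and 2 lower in pro-B(+), and 4 of 11 higher and 6 lower with Lmo2, against 28.4% and 36.4% of all probes with Lmo2. Fut7, the fucosyltransferase that completes selectin ligands, rose 1.48-fold and 2.92-fold, Gcnt1, a core branching enzyme, rose 2.28-fold with Lmo2, and the sialyltransferase St3gal6 fell 1.48-fold and 1.43-fold. Cd34 rose 1.44-fold in pro-B(+). Of the other lymphocyte adhesion genes, 6 of 12 were higher and 4 lower in pro-B(+), and 5 of 9 higher and 2 lower with Lmo2. Cd2, which binds CD48 in the mouse, rose 3.58-fold and 1.68-fold and Cd48 rose 1.51-fold with Lmo2, whereas Pecam1 fell 2.19-fold and Jam2 2.17-fold in pro-B(+) and Itgad, the alphaD partner of beta2, fell 1.72-fold with Lmo2.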

How the data were processed

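Total RNA of 8 samples (4 groups of 2) was labelled with Cy3 and hybridised to one-colour Agilent 4x44K mouse arrays. The authors scanned them with Agilent Feature Extraction 11.5.1.1 and deposited spot intensity values, of which gProcessedSignal is background-subtracted, with flags for other spot properties. The authors also deposited a matrix of log2 values, normalised to the 75th percentile, which equalled the scanner log2 values minus a constant for each array. The design's annotation is mm9.

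Control spots and spots with outlier flags were left out, which removed 51 of 39429 probes; 39378 were analysed, 26550 (67.4%) of them with a gene symbol. No spot was saturated. Processed intensity was taken to log2 and the 75th percentile of the array subtracted. limma 3.58.1 in R 4.3.3 (lmFit, eBayes) fitted 4 group means to all 8 arrays, with 4 residual degrees of freedom, and p-values were adjusted by Benjamini-Hochberg over all probes tested. A probe entered a test if, in 1 or more of the compared groups, its 2 spots were both well above background, and was called at an adjusted p of 0.05. For a group with no array above background the fold is a bound ("at least"), against the higher of the lowest signal well above background on each array and the probe itself. Precision is limited by the number of arrays. When an array was left out, the lone array of its group was assumed to vary like the other groups. Members named array by array were Itga4, Itga6, Itgal, Itgb1, Itgb2, Itgb7, Cd44, Selplg and every member called with at least a 2-fold change or difference of effects; from each pathway list the 3 genes with the largest called change above background on all 4 arrays were named.

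Members, lists and tests were chosen with earlier results of these data known. Alternatives were the deposited matrix, median scaling, quantile normalization, normexp, other filters, the replicate block, own arrays, leave-one-out and the mean over probes. normexp was planned on mean spot signals and ran on median ones (offset 50), local backgrounds above 3 times the array's median being set to it. A plain 2-against-2 permutation test cannot go below a 2-sided exact p of 0.333.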

Additional observations from a re-analysis of the deposited data

Results flagged for a closer look

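From the set, 19 members were picked out because the effect in pro-B(+) against pro-B(-) differed from that of Lmo2 against the vector control, by the interaction contrast of the limma fit. Differences are log2 changes in pro-B(+) minus those with Lmo2. The positive ones were 3.34 for Itga8, 1.47 for Itga11, 1.24 for Itgb5, 0.89 for Vcam1, 0.81 for Cd44, 0.57 for Itgb1, 0.54 for Itgax and 0.25 for Itga6. The negative ones were -2.82 for Itga2b, -2.03 for Itgb3, -1.72 for Itga7, -1.66 for Itga4, -1.40 for Itgav, -1.04 for Itgb7, -0.78 for Itgal, -0.75 for Jam3, -0.40 for Selplg, -0.30 for Icam2 and -0.28 for Itgb2. Those of Itga8, Itga2b, Itga7 and Itga11 include groups that were not well above background, and with normexp correction Itga11 was 0.13 and not called. With the mean over probes Vcam1 was 0.54 (limma adjusted p = 0.127), and the calls of Itga6 and Itgb2 were each lost when any 1 of 6 arrays was left out. No group had enough arrays for a test of outlying samples.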

How the results depend on the processing

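Of 1270 recomputed changes of single members, 1156 kept their direction and their side of the threshold, 56 lost the call, 27 gained it and 31 turned. Of 472 with 1 array left out, 427 kept both, 29 lost the call, 5 gained it and 11 turned. The difference of effects has no value from the arrays of 2 groups alone. The deposited matrix changed none of 93 values. The replicate numbers did not pair the arrays (correlations of replicate differences from -0.03 to 0.05), and the replicate block left 15, 19 and 15 members called in the 3 comparisons and 18 in the difference of effects, where Itga6 (0.25, limma adjusted p = 0.0576) lost its call.

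For pro-B(+) against pro-B(-), median scaling called 12 members lower and gave a members' median of -0.19. That median was 0.058 with normexp, 0.19 without the filter on dim probes and 0.28 with the mean over probes. For pro-B(-)/LMO2 against pro-B(-)/Mock it was 0.21 with median scaling, 0.23 with quantile normalization, 0.25 with normexp, 0.18 with the stricter filter, 0.44 with the mean over probes and 0.23 to 0.40 with 1 array left out. For pro-B(-)/Mock against pro-B(-) it was 0.13, 0.096 and 0.091 with median scaling, quantile normalization and normexp, 0.0023 without the filter, -0.082 with the mean over probes and 0.064 to 0.24 with 1 array left out. For the difference of effects it was -0.36 with median scaling. Fewer members entered under the stricter filter and more without one; the other causes were not tested.

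Signs turned as follows, for changes not called under the 75th percentile scaling unless said. In pro-B(+) against pro-B(-), median scaling gave -0.16 for Itgb1, -0.19 for Itgb3, -0.26 for Selplg and -0.090 for Icam1, and the mean over probes gave 0.38 for Itga1, 0.45 for Itgam and -0.042 for Selplg. With Lmo2, median scaling gave -0.029 for Itga11 and -0.14 for Itgav, quantile normalization gave -0.042 for Itga11 and 0.067 for Itgam, the mean over probes gave 0.28 for Itgam, and leaving out 1 array gave -4e-04 to 0.13 for Itgav and -0.11 to 0.055 for Itgam. In pro-B(-)/Mock against pro-B(-), Itga4 was -0.006 with quantile normalization, -0.012 with normexp, -0.14 with the mean over probes and -0.013 to 0.017 with 1 array left out, Itga5 was -0.020 with quantile normalization and -0.31 to 0.33 with 1 array left out, the called Itgam (0.43) was -0.11 and Vcam1 -0.10 with the mean over probes. For the difference of effects the mean over probes gave 0.054 for Itga1 and 0.18 for Itgam, and Itgb4 was -0.085 to 0.046 with 1 array left out. Levels near background limit Itga1, Itga2b, Itga3, Itga7, Itga8 and Itga11.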
